A study of Mus musculus with 9 samples.

Results

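The semaphorins, plexins and neuropilins are the ligands and receptors of a guidance system that steers axons and migrating cells. They were taken by gene symbol as every semaphorin of classes 3 to 7, every plexin, both neuropilins and the 2 plexin domain containing genes (Plxdc1 and Plxdc2). This gave 33 of the 22268 genes present in both deposited tables. They were 20 semaphorins, 9 plexins, 2 neuropilins and the 2 Plxdc genes, and all 33 had enough counts to be tested against wild type. Bulk RNA sequencing had been done on cortex dissected from mice on postnatal day 0, of a mixed C57BL/6J, 129S6 and CD1 background, with 3 libraries in each of 3 groups. The wild-type (WT) group came from littermates. The ShhN IUE group had received ShhN, the N-terminal signalling fragment of Sonic hedgehog, by in utero electroporation, which reaches only some of the cells. The SmoM2 group carried hGFAP-Cre with 1 conditional SmoM2f allele, so that an activated Smoothened was made in cells in which the human GFAP promoter drives Cre, and in their progeny. No group was labelled as electroporated without ShhN, so an effect of electroporation itself and one of ShhN cannot be told apart. As shorthand, ShhN IUE and SmoM2 are both called mutant below, although ShhN IUE is an electroporation and not a genotype. The labels do not say whether the libraries of a group came from separate animals, and p-values here cover the spread among libraries. Y-linked counts, given with Nrp2 below, were almost absent from WT library 3 and ShhN IUE library 2 alone. Each of these therefore came from other animals than the rest of its group. Among the remaining libraries of a group the spread may be technical.

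Secreted class 3 semaphorins bind neuropilins, which have no signalling domain of their own and hand the signal to A plexins; Sema3e binds Plxnd1 directly. The membrane-bound semaphorins of classes 4 to 6 mostly bind plexins without a neuropilin, and Sema7a is tethered by a lipid anchor and binds Plxnc1 and integrins. Plexins carry a GTPase-activating domain for Rap inside the cell, and B plexins also pair with the receptor kinases Met and Erbb2. In the developing cortex the system is known for steering callosal and corticofugal axons and migrating interneurons, and Plxnb2 for a role in neural progenitors.

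Libraries held 15376071 to 26923127 counts. The same 3 WT libraries stood in both deposited tables but with different counts, and for 9 of the 33 members the log2 ratio of the summed WT counts exceeded 0.1 in size. These 9 were Plxdc2, Plxna1, Plxna3, Sema3a, Sema3f, Sema4c, Sema5b, Sema6c and Sema6d. For them the 2 comparisons with WT rest on different WT values. Each group was therefore compared with WT inside its own table. Markers of cortical pyramidal neurons summed to 2520.0 to 3210.1 CPM (counts per 1e+06, scaled by TMM) in WT, with 0 of 11 at 0. Markers of striatal projection neurons were also present in WT, at 253 to 354 CPM in all, and all 14 of these fell in each mutant group. Of all genes tested, 17.2% fell in ShhN IUE and 9.29% in SmoM2, and 16.1% and 9.59% rose. Gli1, a target of the pathway, rose 5.42-fold in ShhN IUE and 6.21-fold in SmoM2 (edgeR adjusted p = 0.00369 and 1.59e-04), and its log2 fold change of 2.44 in ShhN IUE was 1.85 without ShhN IUE library 3. The introduced gene itself, Shh, did not pass in ShhN IUE (2.40 ± 0.89, SE, adjusted p = 0.0693), where library 3 carried most of its counts.

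In WT cortex, by the ShhN IUE table, the members spanned a wide range of FPKM, the fragment count scaled for gene length and library size, the unit in which genes can be compared with each other. Sema7a was highest, at 63.9 ± 7.34 FPKM (SD, n = 3). It was followed by Plxna2 (37.9 ± 4.02), Plxna4 (37.7 ± 5.32) and Plxnd1 (36.2 ± 3.18), which did not differ beyond their spread. Sema4g, Plxna1 and Sema6b came next at 31.1, 28.7 and 28.4 FPKM, also within their spread, and Plxna3, Plxnb2 and Plxnb1 at 22.3, 20.6 and 19.5. Sema4c, Sema6c and Nrp1 made up the rest of the 13 members with a mean of at least 10 FPKM. The secreted semaphorins were lower, from 7.96 ± 0.294 for Sema3f and 5.30 ± 0.641 for Sema3c down to 0.294 ± 0.0776 for Sema3b. At the bottom stood Plxnb3 at 0.185 ± 0.0625 and Plxdc1 at 0.159 ± 0.0223 FPKM, so plexins held places near both ends of the order. In the SmoM2 table Sema4c (20.5) stood above Plxnb1 (19.4), within its spread, and Sema3a stood at 3.52 FPKM in place of 1.46.

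In ShhN IUE against WT 8 members rose and 5 fell of 33 tested, by edgeR's quasi-likelihood test at an adjusted p under 0.05. Over all 16180 genes tested, 16.1% rose and 17.2% fell. For the members these shares were 24.2% and 15.2%, the second near the background. In SmoM2 against WT 7 members rose and 7 fell, 21.2% in each direction, where 9.59% of 16485 genes rose and 9.29% fell. Of the 9 plexins 5 rose and 1 fell in ShhN IUE, and 6 rose and 2 fell in SmoM2; of the 20 semaphorins 3 rose and 3 fell in ShhN IUE, and 0 rose and 5 fell in SmoM2. No semaphorin rose in SmoM2 at an unadjusted p under 0.05 in edgeR either, and 0 did with DESeq2 and limma-voom. The median log2 fold change of the members was 0.07 in ShhN IUE and -0.18 in SmoM2, against 0.00 and -0.01 over all genes. Groups without overlap were common. Every ShhN IUE library lay above every WT library for 3972 of the 16180 genes, and below for 4025. Among the members this held for 11 and 6. In SmoM2 it held for 3370 and 3247 of 16485 genes, and for 9 and 12 members. A lack of overlap is therefore given below only as a description of the libraries. Both comparisons use the same WT libraries, so their values are set side by side and are not independent of each other.

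**Figure D1:**
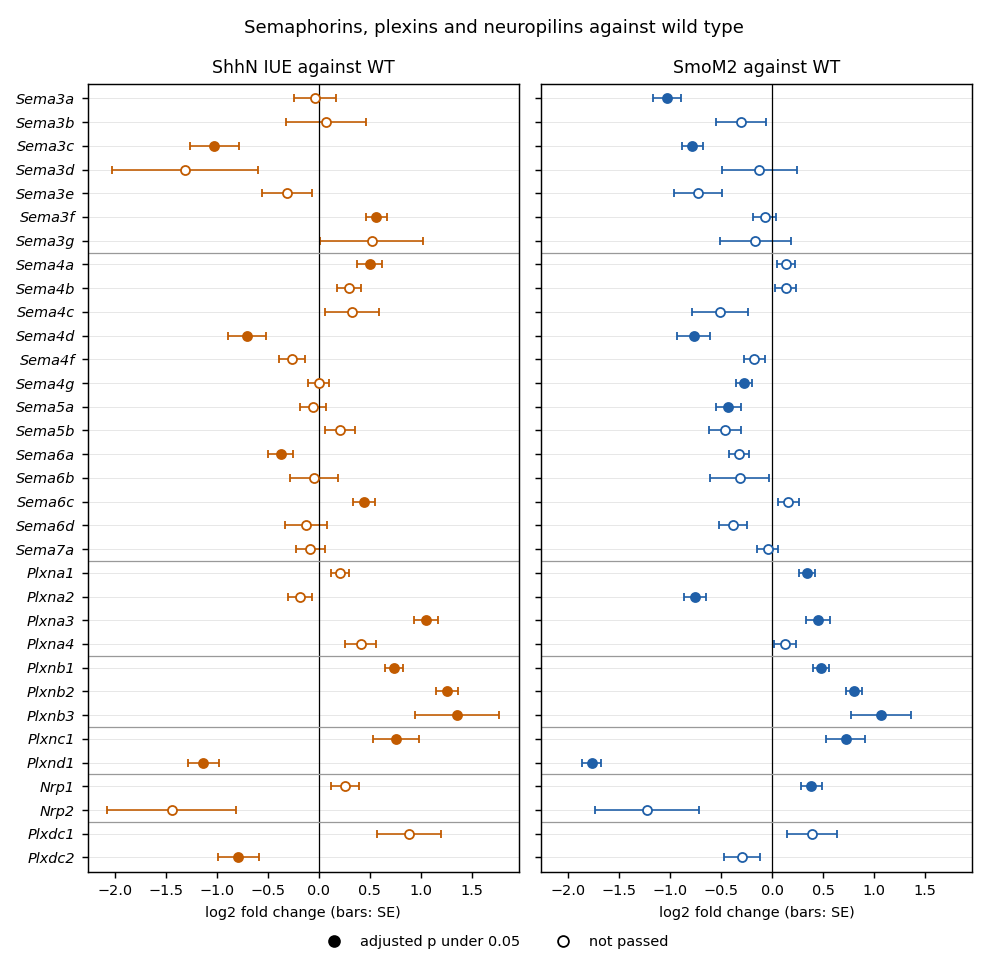
Log2 fold change of all 33 members in ShhN IUE (left) and SmoM2 (right) against the WT libraries of the same table, with bars for the SE. Filled points passed an adjusted p of 0.05; horizontal lines separate secreted semaphorins, membrane semaphorins, A plexins, B plexins, C and D plexins, neuropilins and Plxdc genes. Plxnd1 lies at -1.13 and -1.77, and the 3 B plexins lie to the right of 0 in both panels.

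All 3 B plexins rose in each mutant group, while Plxnd1 fell in each. Plxnb2, a receptor of class 4 semaphorins, stood at 186, 179 and 202 CPM in WT libraries 1, 2 and 3 and at 440.4, 403 and 508 CPM in ShhN IUE. In the other table it stood at 200.3, 188 and 211 CPM in WT and 339.7, 342 and 361 CPM in SmoM2. Every mutant library thus lay above every WT library. The log2 fold change was 1.25 ± 0.11 (SE, n = 3 per group) in ShhN IUE and 0.80 ± 0.08 in SmoM2, with edgeR adjusted p = 6.06e-04 and 6.41e-04.

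Plxnb1, the receptor of Sema4d, had 232, 215 and 213 CPM in WT and 356, 389 and 350.3 CPM in ShhN IUE, and in SmoM2 295, 298 and 321 CPM beside 229.8, 214 and 212 CPM in WT. The groups did not overlap. The log2 fold change was 0.73 ± 0.09 (SE) in ShhN IUE and 0.48 ± 0.08 in SmoM2 (edgeR adjusted p = 0.00133 and 0.00489), and neither call was lost without any 1 library. An antisense gene, Gm7628, overlaps Plxnb1, and the sources used here do not state that strand was used in counting. Genes on the opposite strand also overlap other members, among them Plxna1, Plxna4, Sema3e, Sema4c, Sema5a and Sema6d, and the same limit holds for these.

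Plxnb3 was scarce, with 102 counts over the 3 WT libraries. It had 1.97, 2.04 and 1.04 CPM in WT against 3.25, 3.03 and 6.76 CPM in ShhN IUE, and 1.96, 2.05 and 1.09 against 3.30, 4.41 and 3.07 CPM in SmoM2. The rise in ShhN IUE was 1.35 ± 0.41 (SE, edgeR adjusted p = 0.0373) and rested in part on library 3, without which the log2 fold change was 0.90. That call was lost without any 1 of libraries 1 and 3 of ShhN IUE or any 1 of libraries 1, 2 and 3 of WT (adjusted p = 0.0538 to 0.106). In SmoM2 the rise was 1.07 ± 0.29 (adjusted p = 0.0383), lost without any 1 of libraries 1, 2 and 3 of SmoM2 or library 3 of WT (adjusted p = 0.0660 to 0.127).

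Plxnd1, the receptor of Sema3e, had 332, 301 and 274 CPM in WT and 170.0, 126 and 117 CPM in ShhN IUE. In the SmoM2 table it had 326, 299.7 and 272 CPM in WT and 86.1, 91.9 and 84.9 CPM in SmoM2. All mutant libraries lay below all WT libraries, and the SmoM2 libraries lay within a few CPM of each other. The log2 fold change was -1.13 ± 0.15 (SE) in ShhN IUE and -1.77 ± 0.09 in SmoM2 (edgeR adjusted p = 0.00175 and 8.10e-05), and both calls held without each single library. Plxnd1 is known in endothelium and in neurons of the striatal direct pathway as well as in cortical neurons. The summed striatal markers dropped beside it, from 253 to 354 CPM in WT to 64.7 to 77.4 in ShhN IUE. In the SmoM2 table they dropped from 271 to 391 CPM to 74.9 to 83.8, with 0 of 14 at 0 in any library of either table. Of the 11 pyramidal markers, 5 fell in ShhN IUE and 7 in SmoM2, and 0 rose in either. The part of striatal or pyramidal cells in the fall of Plxnd1 was not tested. Endothelial markers summed to 158 to 263 CPM in WT and 175 to 292 in ShhN IUE, and to 174 to 278 and 226 to 263 in the SmoM2 table, with overlapping ranges, 0 of 10 markers at 0, and 1 of 10 rising in ShhN IUE. In SmoM2 0 of 10 were called by edgeR, DESeq2 or limma-voom, with 1 higher and 1 lower at an unadjusted p under 0.05 in edgeR. Beside these counts, 16.1% of all genes rose and 17.2% fell in ShhN IUE, and 9.59% rose and 9.29% fell in SmoM2. In such bulk samples, fewer cells of a type and less RNA per cell cannot be told apart.

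The promoters of the 4 receptors above are shown because these receptors moved in opposite directions under the same treatments. Each run covers 250 bases before and 50 bases after a start site, read 5′ to 3′ on the gene's strand, from RefSeq on GRCm38.p6. Capitals mark CG dinucleotides; Plxnb2 has another listed start nearer the gene, not shown. Plxnb1 lies at chr9:109095186-109095485 (plus strand, 36 CG), Plxnb2 at chr15:89180739-89181038 (minus strand, 27 CG), Plxnb3 at chrX:73756853-73757152 (plus strand, 4 CG) and Plxnd1 at chr6:115994956-115995255 (minus strand, 23 CG).
Plxnb1: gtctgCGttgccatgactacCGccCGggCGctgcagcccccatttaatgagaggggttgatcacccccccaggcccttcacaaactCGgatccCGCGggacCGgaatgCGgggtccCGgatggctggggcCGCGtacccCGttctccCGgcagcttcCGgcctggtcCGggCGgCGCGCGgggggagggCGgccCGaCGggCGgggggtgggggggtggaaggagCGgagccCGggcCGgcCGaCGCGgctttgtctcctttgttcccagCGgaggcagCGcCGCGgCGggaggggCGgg
Plxnb2: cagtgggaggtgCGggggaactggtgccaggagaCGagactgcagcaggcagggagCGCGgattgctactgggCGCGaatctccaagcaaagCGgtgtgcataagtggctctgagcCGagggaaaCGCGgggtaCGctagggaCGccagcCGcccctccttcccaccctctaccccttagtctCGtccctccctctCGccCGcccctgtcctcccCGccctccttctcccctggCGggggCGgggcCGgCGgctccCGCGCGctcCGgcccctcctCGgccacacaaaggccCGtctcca
Plxnb3: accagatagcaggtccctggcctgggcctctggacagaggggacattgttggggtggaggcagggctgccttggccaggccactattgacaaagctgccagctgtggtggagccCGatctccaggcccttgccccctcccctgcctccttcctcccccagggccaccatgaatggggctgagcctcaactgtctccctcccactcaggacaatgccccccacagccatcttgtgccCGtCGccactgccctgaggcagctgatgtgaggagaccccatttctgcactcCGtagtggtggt
Plxnd1: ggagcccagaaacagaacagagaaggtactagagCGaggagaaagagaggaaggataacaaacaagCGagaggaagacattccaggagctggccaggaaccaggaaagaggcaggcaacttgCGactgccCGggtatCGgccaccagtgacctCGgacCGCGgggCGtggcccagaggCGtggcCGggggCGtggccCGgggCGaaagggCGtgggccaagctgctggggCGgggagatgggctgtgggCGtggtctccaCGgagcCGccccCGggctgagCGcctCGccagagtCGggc
Plxnb1, Plxnb2 and Plxnd1 are rich in CG, and the weakly expressed Plxnb3 is poor in it.

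Over the family, 26 members matched RefSeq, with 37 promoters. Their median GC content was 63.7% with 15 CG dinucleotides, against 52.7% and 7 over 32851 promoters of the same length. The GLI motif GACCACCCA, searched on both strands, was in 0 of the 37 and in 0.253% of all promoters. Its 8-base core ACCACCCA, which every match of the longer motif contains, was in 0 of the 37 and in 1.48% of all. The E-box CAGCTG was in 6 of the 37 (16.2%, against 16.3% of all), those of Plxnb3, Sema3g, Sema4d, Sema4g, Sema6c and Sema7a, and the homeodomain motif TAATTA in 0 of the 37 against 5.29%. A match is a description of these letters in this window and does not show a bound site.

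Proliferation markers rose in the same libraries as the B plexins. The 10 markers of cycling cells, all of which rose in each comparison, summed to 121 to 169 CPM in WT and 419.8 to 509 in ShhN IUE, and to 121 to 168 and 336 to 489 in the SmoM2 table. Radial glia markers rose for 7 of 12 in ShhN IUE and 6 of 12 in SmoM2. The background of rising genes was 16.1% in ShhN IUE and 9.59% in SmoM2. The part of these cells in the rise of the B plexins was not tested.

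**Figure D2:**
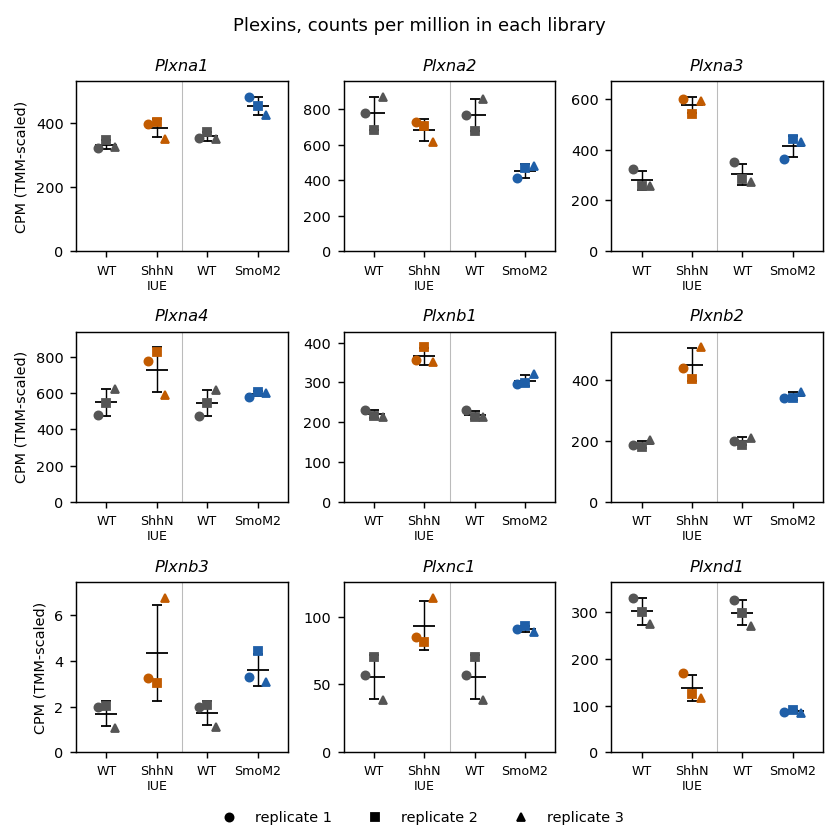
TMM-scaled CPM of the 9 plexins in each library, with the WT libraries as quantified in each of the 2 tables. Points are libraries, dashes means and bars SD (n = 3). Plxnb1 and Plxnb2 lie above WT without overlap in ShhN IUE and SmoM2, Plxnd1 lies below, and Plxna2 lies below WT in SmoM2 while its ShhN IUE libraries overlap with WT.

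A plexins, which carry the signal of neuropilin-bound and class 6 semaphorins, did not move as a block. Plxna3 had 323, 256 and 257 CPM in WT and 599, 539.8 and 589 CPM in ShhN IUE, a log2 fold change of 1.05 ± 0.12 (SE, edgeR adjusted p = 9.97e-04). In SmoM2 it had 365, 439.8 and 432 CPM beside 351, 283 and 273 in WT (0.45 ± 0.12, adjusted p = 0.0349). The groups did not overlap in either table, but in SmoM2 the lowest library lay just above the highest WT library. The SmoM2 call was lost without any 1 of libraries 2 and 3 of SmoM2 or any 1 of libraries 2 and 3 of WT (adjusted p = 0.0827 to 0.113). The WT counts of Plxna3 summed to 16545 in the ShhN IUE table and 18014 in the SmoM2 table, so its rises were measured against different WT values.

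Plxna2, which binds Sema6a as well as taking part in class 3 signalling, showed a different picture in the mutants. It had 779, 682 and 871 CPM in WT and 731, 706 and 615 CPM in ShhN IUE, with overlap between groups (-0.18 ± 0.12, SE, edgeR adjusted p = 0.258). In SmoM2 it had 411, 469.6 and 482 CPM against 768, 678 and 860.5 in WT, with every SmoM2 library below every WT library. The log2 fold change was -0.76 ± 0.11 (adjusted p = 0.00317), and the call held without each single library.

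Plxna1 had 352, 372 and 349 CPM in WT and 482, 454 and 426 CPM in SmoM2, a rise of 0.34 ± 0.08 (SE, edgeR adjusted p = 0.0205) that was lost without any 1 of libraries 1 and 2 of SmoM2 (adjusted p = 0.0643 to 0.0668). In ShhN IUE it lay at 0.21 (95% interval -0.01 to 0.42) and did not pass. Its WT counts summed to 19799 in the ShhN IUE table and 21378 in the SmoM2 table. Plxna4 did not pass in either comparison with edgeR. Its ShhN IUE libraries held 774, 824 and 587 CPM against 477, 546 and 621 in WT (0.41 ± 0.15, adjusted p = 0.0680), and without ShhN IUE library 3, the lowest, it passed (0.55, adjusted p = 0.0184). It also passed there with all libraries under DESeq2 (0.41, adjusted p = 0.0469) and upper quartile scaling (0.44, adjusted p = 0.0459).

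Plxnc1, the receptor of Sema7a, had 57.2, 70.4 and 38.5 CPM in WT and 84.9, 81.2 and 114 CPM in ShhN IUE. In the SmoM2 table it had 56.9, 70.5 and 38.2 CPM in WT and 90.8, 93.1 and 88.8 CPM in SmoM2. The mutant libraries lay above WT without overlap, with the WT libraries spread widely. It rose by 0.75 ± 0.23 (SE) in ShhN IUE and 0.72 ± 0.19 in SmoM2 (edgeR adjusted p = 0.0354 and 0.0352). The ShhN IUE call was lost without any 1 of libraries 1 and 3 of ShhN IUE or any 1 of libraries 1 and 3 of WT (adjusted p = 0.0631 to 0.0883), and the SmoM2 call without any 1 of libraries 1, 2 and 3 of SmoM2 or library 1 of WT (adjusted p = 0.0620 to 0.0929). Its ligand Sema7a did not pass, at -0.08 in ShhN IUE (95% interval -0.40 to 0.24) and -0.05 in SmoM2 (-0.29 to 0.19).

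Together these changes altered which plexins made up the pool. The summed FPKM of the 9 plexins was 207, 211 and 211 in WT and 287, 277 and 277 in ShhN IUE, and 213, 216 and 215 in WT and 222, 229 and 231 in SmoM2. The sum was thus higher in every ShhN IUE library, and in every SmoM2 library, than in every WT library of the same table. These totals carry no TMM scaling, and the values of SmoM2 lay closer to WT, so neither group is read as a change in the size of the pool. Plxnd1 made up 18.8, 17.6 and 15.5% of it in WT and 7.23, 5.52 and 5.35% in ShhN IUE, and 18.0, 17.1 and 15.1% and 4.78, 4.88 and 4.52% in the SmoM2 table. The share of Plxnb2 was 9.55, 9.54 and 10.4% in WT and 17.1, 16.1 and 21.1% in ShhN IUE, and 10.1, 9.78 and 10.7% and 17.2, 16.6 and 17.5% in the SmoM2 table. Plxnd1 therefore stood above Plxnb2 in every WT library and below it in every mutant library. The share of Plxna2, at 18.1% ± 1.87 in WT (SD, n = 3), was 12.2% ± 0.715 in ShhN IUE although its own CPM overlapped with WT there and the total was larger. By a two-sided exact permutation test the shares of Plxnd1 and Plxnb2 in both mutants, and of Plxna2 in ShhN IUE, each gave p = 0.1, the smallest that 3 libraries against 3 allow, so none could pass.

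**Figure D3:**
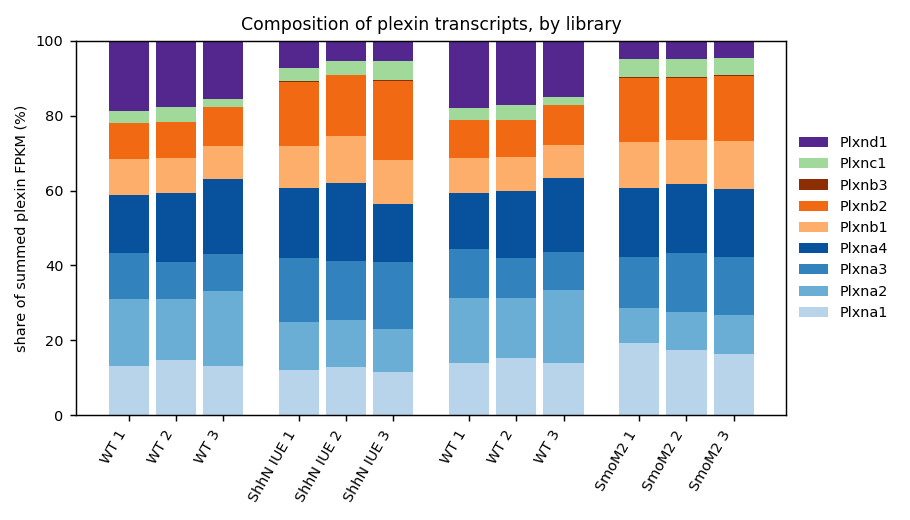
Share of each plexin in the summed plexin FPKM (%), as stacked bars for every library, with the WT libraries as quantified in each table. The Plxnd1 segment at the top shrinks from a mean of 17.3% in WT to 6.03% in ShhN IUE and from 16.7% to 4.73% in SmoM2, and the Plxnb2 segment widens from 9.82% to 18.1% and from 10.2% to 17.1%.

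Among the secreted ligands, Sema3c fell in each mutant group. Sema3c, a cue for callosal axons, had 54.1, 57.8 and 67.7 CPM in WT and 25.4, 41.6 and 21.2 CPM in ShhN IUE, and 56.3, 60.1 and 69.2 and 36.7, 35.2 and 35.8 CPM in the SmoM2 table. Groups did not overlap in either. The log2 fold change was -1.03 ± 0.24 (SE, edgeR adjusted p = 0.0138) in ShhN IUE, lost without library 1 of ShhN IUE (adjusted p = 0.0551), and -0.79 ± 0.10 (adjusted p = 0.00219) in SmoM2.

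Sema3a, the classical growth cone collapsing factor, had 65.0, 59.3 and 62.5 CPM in WT and 28.1, 37.0 and 26.1 CPM in SmoM2, a log2 fold change of -1.04 ± 0.14 (SE, edgeR adjusted p = 0.00232). In ShhN IUE it had 20.2, 34.2 and 21.2 CPM against 27.4, 24.6 and 25.7 in WT and did not pass (-0.04 ± 0.21, adjusted p = 0.899). The same WT libraries held 1538 Sema3a counts in the ShhN IUE table and 3705 in the SmoM2 table. The SmoM2 libraries thus lay near the WT level of the other table, and the fall was measured against WT counts that differ between the tables. The difference between the mutants could not be tested for this gene.

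Sema3f, a ligand of Nrp2, had 68.4, 66.9 and 72.2 CPM in WT and 106, 93.6 and 107 CPM in ShhN IUE, without overlap, and rose by 0.56 ± 0.10 (SE, edgeR adjusted p = 0.00530). In SmoM2 it had 60.9, 57.2 and 61.0 CPM against 54.2, 64.6 and 70.1 in WT, with overlap (-0.08 ± 0.11, adjusted p = 0.677). The WT counts of Sema3f summed to 4105 in the ShhN IUE table and 3751 in the SmoM2 table. Its difference between the 2 treated groups was not tested in the main fit. Sema3f was thus not shown to respond differently in them. Sema3f made up 49.6, 45.7 and 46.8% of the summed FPKM of secreted semaphorins in WT and 70.8, 61.8 and 66.6% in ShhN IUE. Sema3c made up 30.2, 30.3 and 33.7% and 13.0, 21.1 and 10.2%. In the SmoM2 table the share of Sema3f was 37.7, 39.6 and 40.9% in WT and 50.5, 49.8 and 53.6% in SmoM2, where Sema3f itself did not pass and both Sema3a and Sema3c had fallen.

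The other secreted semaphorins were scarce and did not pass with edgeR. Sema3e, the ligand of Plxnd1, had 8.68, 9.42 and 10.3 CPM in WT and 6.61, 6.65 and 3.87 CPM in SmoM2, without overlap (-0.73 ± 0.23, SE, edgeR adjusted p = 0.0616); it passed with DESeq2 and limma-voom. Sema3d had 3.79, 9.41 and 5.38 CPM in WT and 1.47, 0.534 and 5.51 CPM in ShhN IUE. In the SmoM2 table it had 3.82, 9.42 and 5.36 CPM in WT and 7.01, 3.64 and 6.40 CPM in SmoM2. Its log2 fold change of -1.32 in ShhN IUE (adjusted p = 0.188) was -2.59 without ShhN IUE library 3 and passed there (adjusted p = 0.0148). Markers of meninges and fibroblasts varied between libraries of a group, summing to 15.6, 704 and 241 CPM in WT, 21.2, 32.3 and 855 in ShhN IUE and 504, 247 and 376 in SmoM2. In each of the 3 groups the library with the highest sum was also the one with the highest Sema3d, Sema3g and Sema3b; these 3 genes were singled out after their values were seen. Sema3b had 2.75, 4.04 and 2.75 CPM in WT and 2.95, 1.90 and 5.20 in ShhN IUE, and Sema3g 1.76, 3.59 and 2.25 and 2.44, 1.90 and 6.64. Of the 10 markers 0 passed in either comparison by edgeR, also at an unadjusted p under 0.05, or by DESeq2 or limma-voom. Over all genes 16.1% rose and 17.2% fell in ShhN IUE, and 9.59% and 9.29% in SmoM2. With such spread within groups, 0 of 10 does not show that the groups held equal amounts of these cells. The part of these cells in the 3 semaphorins was not tested.

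Of the 13 membrane-bound semaphorins 2 rose and 2 fell in ShhN IUE, and 3 fell in SmoM2. The background was 16.1% rising and 17.2% falling in ShhN IUE, near which 2 of 13 lies, and 9.29% falling in SmoM2. Sema4d, the ligand of Plxnb1, had 50.8, 38.3 and 57.5 CPM in WT and 32.6, 23.9 and 33.2 CPM in ShhN IUE, and 51.6, 38.5 and 60.7 and 31.9, 28.2 and 28.3 CPM in the SmoM2 table. It lay below WT without overlap in both, while its receptor lay above. The log2 fold change was -0.71 ± 0.19 (SE) in ShhN IUE and -0.77 ± 0.16 in SmoM2 (edgeR adjusted p = 0.0229 and 0.0138). The first call was lost without any 1 of libraries 1 and 2 of ShhN IUE or any 1 of libraries 1 and 3 of WT (adjusted p = 0.0525 to 0.0732), and the second without any 1 of libraries 2 and 3 of SmoM2 (adjusted p = 0.0594 to 0.0673).

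In ShhN IUE, Sema4a and Sema6c rose and Sema6a fell. Sema4a had 41.6, 37.4 and 39.9 CPM in WT and 61.5, 49.4 and 56.8 in ShhN IUE (0.50 ± 0.12, SE, edgeR adjusted p = 0.0164), a call lost without library 1 of ShhN IUE or library 2 of WT (adjusted p = 0.0602 to 0.0716). Sema6c had 189, 169.9 and 212 CPM in WT and 265, 239 and 273 in ShhN IUE (0.44 ± 0.11, adjusted p = 0.0165), lost without library 1 of ShhN IUE or library 2 of WT (adjusted p = 0.0525 to 0.0628). Sema6a, a ligand of Plxna2 and Plxna4, had 53.2, 58.1 and 48.1 CPM in WT and 39.5, 38.4 and 44.9 in ShhN IUE (-0.38 ± 0.12, adjusted p = 0.0461). None of the 3 overlapped between groups, but Sema6a lost its call without any 1 of libraries 1 and 2 of ShhN IUE or any 1 of libraries 1 and 2 of WT (adjusted p = 0.0863 to 0.150), and with upper quartile scaling or no filter. In SmoM2 the 3 genes did not pass with edgeR, but Sema6a passed as lower with DESeq2 (-0.32, adjusted p = 0.0489) and in edgeR over the genes with agreeing WT counts (-0.32, adjusted p = 0.0481). The WT counts of Sema6c summed to 11245 in the ShhN IUE table and 12520 in the SmoM2 table.

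In SmoM2, Sema4g and Sema5a fell by small amounts. Sema4g had 345, 310.3 and 313 CPM in WT and 256, 271 and 269.6 CPM in SmoM2 (-0.28 ± 0.08, SE, edgeR adjusted p = 0.0390), lost without any 1 of libraries 1, 2 and 3 of SmoM2 or any 1 of libraries 1 and 3 of WT (adjusted p = 0.0507 to 0.135). Sema5a, which carries thrombospondin repeats, had 36.9, 48.1 and 45.2 CPM in WT and 29.2, 33.3 and 34.0 CPM in SmoM2 (-0.43 ± 0.12, adjusted p = 0.0446), lost without any 1 of libraries 1, 2 and 3 of SmoM2 or any 1 of libraries 2 and 3 of WT (adjusted p = 0.103 to 0.159). Both sets of libraries lay below WT without overlap, and both calls were also lost with no filter. The membrane semaphorins not called by edgeR in either comparison were Sema4b, Sema4c, Sema4f, Sema5b, Sema6b, Sema6d and Sema7a, with log2 fold changes from -0.27 (Sema4f) to 0.33 (Sema4c) in ShhN IUE and from -0.51 (Sema4c) to 0.13 (Sema4b) in SmoM2. Sema4c, with 6676 WT counts in the ShhN IUE table and 9245 in the SmoM2 table, passed upward without ShhN IUE library 3 (0.61, adjusted p = 0.0210) and downward in SmoM2 without WT library 2 (-0.77, adjusted p = 0.0355). Without WT library 3, Sema5b and Sema6d passed in SmoM2 at -0.59 and -0.50 (edgeR adjusted p = 0.0241 and 0.0262). Sema5b also passed there with DESeq2 and all libraries (-0.46, adjusted p = 0.0316). Their WT counts differed between the ShhN IUE and SmoM2 tables, at 3090 and 3469 for Sema5b and 4109 and 6086 for Sema6d. Sema6d averaged 77.8 CPM in SmoM2, against 102 in WT of its own table and 69.0 in WT of the other. For Sema5b these means were 42.0, 58.1 and 52.0 CPM.

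**Figure D4:**
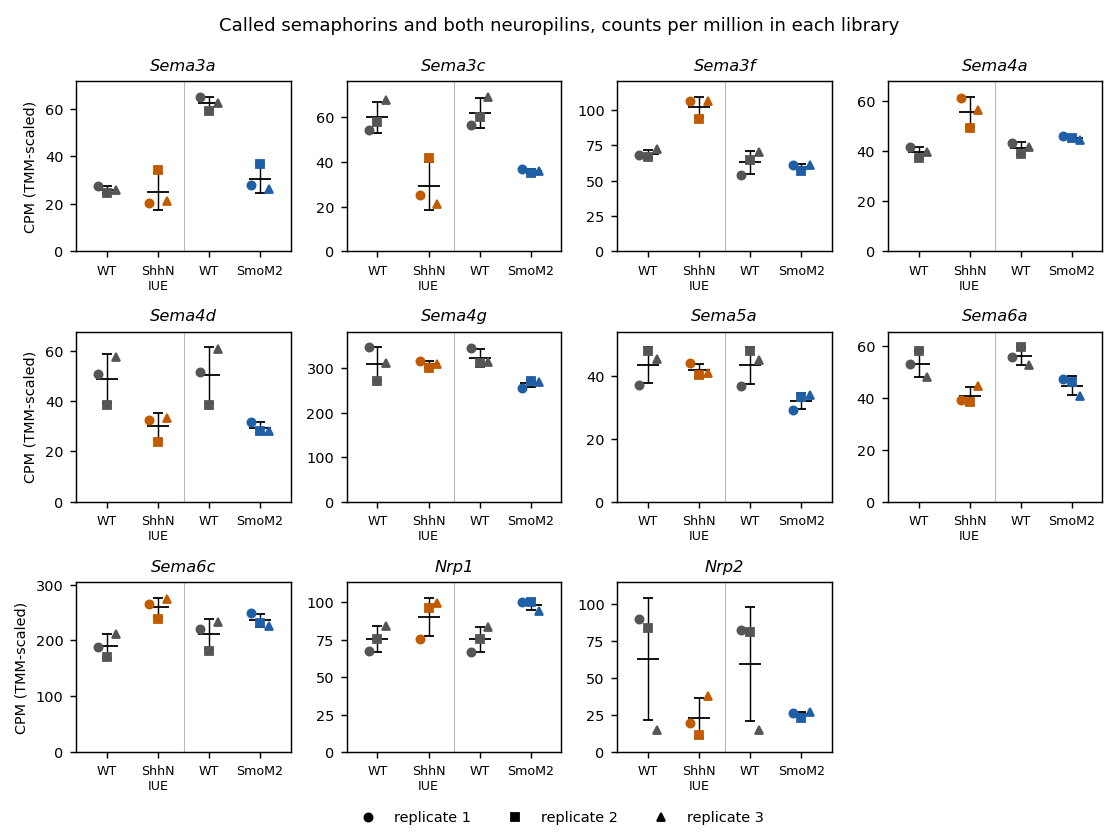
TMM-scaled CPM of the semaphorins called in at least 1 comparison with WT, and of Nrp1 and Nrp2, in each library; dashes are means and bars SD (n = 3), and WT libraries appear as quantified in each table. Sema3a stands at 24.6 to 27.4 in the WT libraries of 1 table and 59.3 to 65.0 in those of the other, and Nrp2 of WT replicate 3 stands at 15.3, far below the other WT libraries.

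The neuropilins are co-receptors for class 3 semaphorins and for VEGF. Nrp1 had 66.9, 75.3 and 83.7 CPM in WT and 100.3, 100.2 and 94.1 CPM in SmoM2, above WT without overlap, and rose by 0.38 ± 0.10 (SE, edgeR adjusted p = 0.0352); this was lost without any 1 of libraries 1, 2 and 3 of SmoM2 or any 1 of libraries 1 and 2 of WT (adjusted p = 0.0644 to 0.106). In ShhN IUE it had 75.3, 96.0 and 99.1 CPM and overlapped with WT (0.25 ± 0.14, adjusted p = 0.194).

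Nrp2 turned on a single library. It had 89.8, 83.5 and 15.3 CPM in WT libraries 1, 2 and 3 (1731, 1838 and 278 counts) and 19.6, 11.8 and 38.1 CPM in ShhN IUE. In the SmoM2 table it had 82.3, 81.3 and 14.9 CPM in WT and 26.3, 23.3 and 26.9 CPM in SmoM2. WT library 3 thus lay among the ShhN IUE libraries and below the SmoM2 libraries, and the other WT libraries far above all mutant libraries. With all libraries the log2 fold change was -1.44 ± 0.63 (SE) in ShhN IUE and -1.23 ± 0.51 in SmoM2, and neither passed (edgeR adjusted p = 0.114 and 0.132). Without WT library 3 it was -1.91 and -1.67, and both passed (adjusted p = 0.0226 and 7.49e-04). The authors' deposited table calls Nrp2 lower in each mutant group, with q-values of 0.0273 and 0.0378. In WT library 3, 17 genes, Nrp2 among them, lay more than 3-fold below both other WT libraries in both tables, among genes with at least 5 CPM there. This rule was chosen after the values were seen, so that Nrp2 meets it is no finding. The same count was not made for WT library 1 or 2, so 17 is not shown to be unusual. Of the 17, 4 are Y-linked. Those 4 summed to 0.44 CPM in WT library 3 and 0.59 in ShhN IUE library 2, and to 199 to 281 CPM in the rest, and whether the sex of the animals has a part in the Nrp2 values was not tested. An antisense gene, Gm29083, overlaps Nrp2, and its reads cannot be told apart from those of Nrp2 if strand was not used.

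Of the plexin domain containing genes, transmembrane proteins with a plexin-like repeat, Plxdc2 had 15.2, 23.0 and 16.6 CPM in WT and 10.2, 9.44 and 12.1 CPM in ShhN IUE with a log2 fold change of -0.79 ± 0.20 (SE, edgeR adjusted p = 0.0197). This call was lost without any 1 of libraries 1 and 2 of ShhN IUE or library 2 of WT (adjusted p = 0.0571 to 0.0709). In SmoM2 Plxdc2 had 12.7, 13.1 and 12.8 CPM, against 13.6, 20.2 and 13.7 in WT of the same table. The log2 fold change of -0.30 ± 0.18 (SE) did not pass. Its WT counts summed to 1102 in the ShhN IUE table and 958 in the SmoM2 table. Plxdc1, at 1.24, 1.14 and 0.934 CPM in WT and 1.98, 1.60 and 2.57 CPM in ShhN IUE, did not pass (0.88 ± 0.31, adjusted p = 0.0596).

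The mutants were next compared with each other, over the 12349 genes whose WT counts agreed between tables; 24 members could be tested. In SmoM2 against ShhN IUE 5 of the 24 were lower and 0 were higher, where 8.11% of all genes were lower and 8.44% higher. At an unadjusted p under 0.05, edgeR put 8 members lower and 0 higher, and DESeq2 and limma-voom also put 0 higher after adjustment. Plxnd1 was lower in SmoM2, at a log2 difference of -0.67 ± 0.14 (SE, edgeR adjusted p = 0.00955) and so was Plxna2, at -0.60 ± 0.11 (adjusted p = 0.00614), and both calls held without each single library. For Plxnd1, a receptor that fell in each mutant, the fall was thus larger in SmoM2, and Plxna2 differed between the mutants as well as from WT in SmoM2.

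For Plxnb1 and Plxnb2 the difference ran the other way round relative to WT, since their rise was smaller in SmoM2. Neither call held without each single library, and for Plxnb3 no difference was detected. Plxnb2 differed by -0.39 ± 0.09 (SE, edgeR adjusted p = 0.0194), which was lost without library 1 of ShhN IUE or any 1 of libraries 1, 2 and 3 of SmoM2 (adjusted p = 0.0552 to 0.0781). Plxnb1 differed by -0.27 ± 0.08 (adjusted p = 0.0364), lost without library 2 of WT or any 1 of libraries 1 and 2 of ShhN IUE or any 1 of libraries 1, 2 and 3 of SmoM2 (adjusted p = 0.0578 to 0.134), and Plxnb3 by -0.28 ± 0.34 without passing (adjusted p = 0.611). Sema5a differed by -0.39 ± 0.12 (adjusted p = 0.0434), lost without library 2 of WT or any 1 of libraries 1, 2 and 3 of ShhN IUE or any 1 of libraries 1, 2 and 3 of SmoM2 (adjusted p = 0.0513 to 0.157). Plxnc1 lay at -0.05 (95% interval -0.47 to 0.37), Sema4d at -0.04 (-0.41 to 0.34), Sema3c at 0.28 (-0.18 to 0.73) and Nrp1 at 0.11 (-0.15 to 0.37), so that for these a difference between the mutants was not detected and its size is bounded by these intervals. Sema3c and Sema3d passed as higher in SmoM2 when ShhN IUE library 2 or 3, respectively, was left out (0.61 and 2.45, adjusted p = 0.0151 and 0.0136). Likewise Sema4a passed as lower without ShhN IUE library 2 (-0.39, adjusted p = 0.0285), with upper quartile scaling (-0.34, adjusted p = 0.0427) and with DESeq2 (-0.31, adjusted p = 0.0374), and Plxna4 without ShhN IUE library 3 (-0.44, adjusted p = 0.0223).

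Partners of these receptors on the cell surface were then read from a list of 16 co-receptors and other semaphorin receptors, of which 15 were tested. In ShhN IUE 5 rose and 1 fell, and in SmoM2 2 rose and 1 fell. The background was 16.1% rising and 17.2% falling in ShhN IUE, and 9.59% and 9.29% in SmoM2, where the shares of the list, 13.3% and 6.67%, lay near it. Of the receptor kinases that pair with B plexins, Met and Erbb2 rose in each mutant group, while Mst1r did not pass in either (-0.08 ± 0.28 and -0.24 ± 0.24, SE, edgeR adjusted p = 0.85 and 0.535). Met, the hepatocyte growth factor receptor, had 41.0 ± 9.65 CPM in WT of the ShhN IUE table and 81.7 ± 8.92 CPM in ShhN IUE (SD, n = 3). The log2 fold change was 0.99 ± 0.18 (SE, edgeR adjusted p = 0.00511). In SmoM2 it had 104 ± 14.7 CPM (SD), a log2 fold change of 1.47 ± 0.14 (SE, edgeR adjusted p = 5.07e-04) against WT of the SmoM2 table. Erbb2 rose by 1.22 ± 0.29 (SE) and 0.90 ± 0.22 (adjusted p = 0.0155 and 0.0233), calls lost without library 3 of WT (adjusted p = 0.0501) in ShhN IUE and without any 1 of libraries 1, 2 and 3 of SmoM2 or library 3 of WT (adjusted p = 0.0557 to 0.0845) in SmoM2. Cntn2, an adhesion molecule of axons that takes part in Sema3a responses, fell in SmoM2 (-1.41 ± 0.21, adjusted p = 0.00370), and Chl1, an adhesion molecule that binds Nrp1, fell in ShhN IUE (-0.90 ± 0.19, adjusted p = 0.0100). Ptprs, a receptor tyrosine phosphatase, rose in ShhN IUE (0.56 ± 0.10, adjusted p = 0.00454).

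Downstream of the receptors, 4 of 32 effectors rose and 6 fell in ShhN IUE, and 2 rose and 1 fell in SmoM2, shares of 12.5% and 18.8%, and 6.25% and 3.13%, near or under the background. The small GTPases of the list did not move together in ShhN IUE: Rap1a, Rap1b, Rras2 and Rac1 fell, Rnd3 rose, and Rras, Mras, Rnd1 and Rnd2 did not pass (0.80, 0.11, 0.22 and -0.20). The rise of Rnd3 (0.57 ± 0.15, SE, edgeR adjusted p = 0.0219) was lost without any 1 of libraries 1 and 2 of WT (adjusted p = 0.0578 to 0.0708), and in SmoM2 it rose by 1.04 ± 0.11 (adjusted p = 8.20e-04). Rap1b, a substrate of the plexin GTPase-activating domain, had a log2 fold change of -0.94 ± 0.13 (SE, edgeR adjusted p = 0.00218), Rras2 of -0.94 ± 0.12 (adjusted p = 0.00156) and Rac1 of -0.65 ± 0.08 (adjusted p = 0.00167). In SmoM2 against WT these 3 did not pass, at -0.19, -0.26 and -0.02. In the direct comparison they were higher in SmoM2 than in ShhN IUE, by 0.72 ± 0.12, 0.65 ± 0.10 and 0.58 ± 0.07 (adjusted p = 0.00362, 0.00317 and 0.00116). Arhgef11, an exchange factor that binds B plexins, rose in ShhN IUE (0.63 ± 0.10, adjusted p = 0.00333). Sh3bp1, a Rac GTPase-activating protein bound to plexins, fell in ShhN IUE (-0.62 ± 0.11, adjusted p = 0.00489) and in SmoM2 (-0.56 ± 0.11, adjusted p = 0.0125), the second lost without any 1 of libraries 2 and 3 of SmoM2 (adjusted p = 0.0599 to 0.0661).

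VEGF ligands compete for the neuropilins. Of 4 tested, 2 rose in ShhN IUE and 0 were called in SmoM2 by edgeR. The background was 16.1% rising in ShhN IUE, and 9.59% rising and 9.29% falling in SmoM2, so 0 of 4 in SmoM2 lies near it. In SmoM2 2 were lower at an unadjusted p under 0.05, and 1, Vegfc, fell with DESeq2 and with limma-voom. Vegfa had 61.1 ± 13.2 CPM in WT and 199 ± 93.9 CPM in ShhN IUE (SD, n = 3; 1.70 ± 0.34, edgeR adjusted p = 0.00794). Pgf rose by 1.37 ± 0.34 (adjusted p = 0.0176), lost without library 3 of WT (adjusted p = 0.0605). In SmoM2 against ShhN IUE Vegfa was lower, at a log2 difference of -1.99 ± 0.29 (adjusted p = 0.00230).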

How the data were processed

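Total RNA of postnatal day 0 cortex was sequenced in 9 libraries, grouped by sample title. The authors deposited 2 tables, and per the file headers each gives read counts per gene and library, FPKM values and a q-value for the mutant against WT. The submitters' processing notes list 2 mouse builds, mm10 and GRCm38.p4, and the tools edgeR, StringTie and HISAT2; strand use and the handling of shared reads are not given in the sources used. The deposited counts were tested as they stand, with edgeR 4.0.16 under R 4.3.3 (glmQLFit and glmQLFTest), over all genes that passed its default filter, with TMM scaling and Benjamini-Hochberg adjustment over all of them at a threshold of 0.05. CPM are TMM-scaled counts per 1e+06, SE is the size of the log2 fold change over the square root of F, and 95% intervals use the test's degrees of freedom. Levels of different genes were compared in the FPKM that the authors deposited, and q-values of the authors' deposited table were copied without change. SmoM2 was compared with ShhN IUE in a fit of all 9 libraries over genes whose summed WT counts, with 5 added, agreed between tables within 0.1 on the log2 scale, with WT counts averaged over the tables.

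Alternatives were RLE and upper quartile scaling, no filter, DESeq2 1.42.0, limma-voom (limma 3.58.1), the replicate number as a block, genes with agreeing WT counts or tolerances of 0.05 and 0.2, and leaving out each library. Members called in a comparison with WT and reaching a group mean of 1 CPM were given by library and the rest by range or count, with up to 5 genes named per pathway list; not all eligible genes are named. The scripts were tested on simulated counts. The members, the gene lists and the marker lists were chosen with earlier results of these data known.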

Additional observations from a re-analysis of the deposited data

How the results depend on the processing

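No member called in a comparison, or called under an alternative, changed sign in any alternative run. Of the 13 members called in ShhN IUE against WT, 5 kept their call under all alternatives in which they were tested (Plxna3, Plxnb1, Plxnb2, Plxnd1 and Sema3f), as did 6 of 14 in SmoM2 against WT (Plxna2, Plxnb1, Plxnb2, Plxnd1, Sema3a and Sema3c) and 2 of 5 in SmoM2 against ShhN IUE (Plxna2 and Plxnd1). Restriction to the 24 members with agreeing WT counts gave 5 members rising in ShhN IUE in place of 8, since 3 of the 8 were then not tested. Plxna3 and Sema3f in ShhN IUE and Sema3a in SmoM2 kept their calls without being tested there. Sema3a had 1538 WT counts in the ShhN IUE table and 3705 in the SmoM2 table, so its call depends on which WT counts are used. In SmoM2 against ShhN IUE, 5 members fell, 3 with no filter and 8 with a tolerance of 0.2, where 29 members could be tested. With 1 library left out, the members called ranged from 4 to 8 rising and 1 to 6 falling in ShhN IUE against WT, from 2 to 5 rising and 4 to 8 falling in SmoM2 against WT, and from 0 to 1 higher and 2 to 5 lower in SmoM2 against ShhN IUE. Fits that leave 2 libraries in an arm have less power, and which members were lost stands beside each result. The replicate numbers did not pair the samples: deviations of same-numbered libraries correlated at 0.28, -0.32 and -0.06 for ShhN IUE and WT, at -0.12, -0.17 and 0.06 for SmoM2 and WT and at -0.14, 0.09 and 0.01 for the mutants. With the replicate block, members called were 6 rising and 4 falling in ShhN IUE, 5 rising and 6 falling in SmoM2, and 0 higher and 3 lower between the mutants. Of the members 13 reached a mean WT level of 10 FPKM in either table. For Plxnb3, Plxdc1, Sema3b, Sema3d and Sema3g, with 66 to 378 counts over the WT libraries, the depth limits what could be detected.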
